A study of Homo sapiens with 6 samples.

Results

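The genes described here are the D cyclins (CCND1, CCND2, CCND3), their catalytic partners CDK4 and CDK6, and the CDK inhibitors CDKN1A (p21), CDKN1B (p27), CDKN1C (p57), CDKN2C (p18) and CDKN2D (p19), followed in Daoy cells during an unfolded protein response (UPR). They were chosen by name, with every probe set that the platform annotation maps to that symbol alone. Of the 10 listed genes, 9 had such a probe set, 25 in all, out of 19775 genes on the array with a probe set of their own. CDKN2C had none, and its RNA was not analysed here. Of the 25 probe sets, 18 passed the filter on dim signals and were tested, among 27616 tested probe sets and 12839 tested genes in the series. Each of the 9 genes had at least 1 tested probe set.

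Daoy is an established line from a human medulloblastoma. Cells were treated with 1 µM thapsigargin (Tg) for 8 h, with 1 µM Tg for 3 h, or left untreated, and total RNA of each of the 3 groups was hybridized to 2 arrays, numbered replicate 1 and replicate 2 in the labels. The methods speak of independent experiments but do not say which cultures share a number, so p-values rest on the spread among arrays alone. No vehicle or other genotype was part of the groups, and 1 line was used throughout. Tg blocks the calcium pump of the endoplasmic reticulum (ER), which empties the calcium store of the ER and activates the UPR.

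D cyclins bind CDK4 or CDK6, and the pairs phosphorylate the retinoblastoma protein so that a cell can leave G1. The INK4 inhibitors, to which CDKN2C and CDKN2D belong, bind CDK4 and CDK6 directly, whereas the CIP/KIP inhibitors CDKN1A, CDKN1B and CDKN1C act mainly on the CDK2 complexes and also bind the cyclin D complexes. PERK, an ER kinase of the UPR, phosphorylates the initiation factor eIF2α and lowers protein synthesis. In other cells this is known to deplete the short-lived cyclin D1 protein and to arrest the cycle in G1. The arrays measured RNA, not protein, synthesis rates or cycle phase, and in bulk RNA fewer cells of a kind and less RNA per cell cannot be told apart.

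To show the sequence from which CDKN1A, the 1 gene called below, and 2 further genes are transcribed, the RefSeq promoters of CDKN1A, CDKN1B and CDK4 are given, each from 250 bases before to 50 bases after a start listed in that table, on build GRCh38.p14 and on the strand of the gene. They lie at chr6:36678464-36678763 (plus strand), chr12:12717118-12717417 (plus strand) and chr12:57752261-57752560 (minus strand). For CDKN1B and CDK4 the start is that of the gene, whereas the CDKN1A start lies 2251 bases inside the annotated gene. The deposited files name no build, and no signal was placed by coordinate. Capitals mark the GC box GGGCGG in CDKN1A and CDKN1B, and the E-box CACGTG, the site bound by MYC and MAX among others, in CDK4.
CDKN1A: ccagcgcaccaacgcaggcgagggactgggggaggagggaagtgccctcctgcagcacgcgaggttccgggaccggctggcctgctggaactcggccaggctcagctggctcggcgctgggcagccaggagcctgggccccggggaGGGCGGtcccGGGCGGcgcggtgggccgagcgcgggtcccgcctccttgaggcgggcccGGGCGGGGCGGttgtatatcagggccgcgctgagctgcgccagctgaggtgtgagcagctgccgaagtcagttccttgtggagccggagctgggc
CDKN1B: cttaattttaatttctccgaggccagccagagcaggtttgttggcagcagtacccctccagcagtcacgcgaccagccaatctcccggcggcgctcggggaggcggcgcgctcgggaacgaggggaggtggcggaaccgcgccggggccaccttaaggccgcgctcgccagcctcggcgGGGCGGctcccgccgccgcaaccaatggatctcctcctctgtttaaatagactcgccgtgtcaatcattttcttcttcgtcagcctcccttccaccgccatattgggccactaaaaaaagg
CDK4: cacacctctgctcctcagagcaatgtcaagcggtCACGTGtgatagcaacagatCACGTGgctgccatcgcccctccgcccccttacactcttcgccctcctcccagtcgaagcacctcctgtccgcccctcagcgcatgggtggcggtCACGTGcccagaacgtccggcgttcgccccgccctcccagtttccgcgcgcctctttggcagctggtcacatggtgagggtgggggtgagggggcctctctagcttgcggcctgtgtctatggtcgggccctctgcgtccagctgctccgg
The CDKN1A window held 4 GC boxes, of which the last 2 share 1 base, and 74.3% G and C, and the CDKN1B window held 1 GC box and 62.3% G and C. The CDK4 window held 3 E-boxes, and also 3 GC boxes on the other strand that are left in lower case. The table held 12 promoters for 7 of the 10 genes, since some genes have several starts, and none for CCND1, CCND2 or CDKN1C. Searched on both strands, GGGCGG was found in 9 of the 12 promoters against 44.95% of all 35116 promoters of that length, CACGTG in 4 of 12 against 7.26%, and CCAAT in 5 of 12 against 34.6%. Letters of elements bound by UPR factors were not found in these 12 windows. These were TGACGTCA (ATF/CRE, in 1.85% of all promoters), TGATGCAAT (C/EBP-ATF, 0.236%), TGACGTGG (0.729%) and the ER stress element (a CCAAT box with a CCACG at a fixed distance, 0.0769%). A match describes letters only, and its absence from a 300-base window says nothing about the factor.

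Signals were MAS5 intensities, log2-transformed and tested with limma on all 6 arrays, with Benjamini-Hochberg adjustment over all tested probe sets and a threshold of 0.05. A gene was read from its probe set with the highest mean log2 signal, and all fold changes are treated minus untreated on the log2 scale. As a check of the treatment, all 10 UPR check genes, among them HSPA5, DNAJB9 and DDIT3, had both Tg 8 h arrays above both untreated arrays, with a median log2 fold change of 2.19. Hybridization controls were brighter on replicate 1 (7762 to 11671) than on replicate 2 (2718 to 2840), and arrays with the same number deviated together, so p-values of a limma fit that adds the replicate number as a blocking term, named blocked limma, are given where they matter. Untreated replicate 2 had higher signals than untreated replicate 1 for 10 of the 10 UPR check genes, with a median log2 difference of 1.87, whereas the 9 genes described here differed between these 2 arrays by a median of 0.09, with a range of -1.12 to 1.39. The line's labelled origin was checked with markers. Of 13 neural and medulloblastoma markers, 11 were tested, and ATOH1 and BARHL1 were under 100 on all arrays. Of the endothelial, immune and astrocyte markers, VWF, PTPRC, GFAP, AQP4 and SLC1A2 were also under 100 on all arrays. The others with a probe set of their own exceeded 100 on some arrays. These were TEK (up to 358.9), ALDH1L1 (157.7), CD3E (140.2), PECAM1 (134.9), CSF1R (124.5) and CDH5 (109.3). COL1A1, a fibroblast collagen, had signals of 17638.9 to 33447.7. Of the other fibroblast markers, COL3A1 had 2154.7 to 6888.6 and COL1A2 414.6 to 1511.9. PDGFRB had 10.0 to 108.5 and was not tested. The summed signal of the neural list was 47497.3 to 62976.2 at 8 h of Tg and 57699.8 to 72743.4 at 3 h. In untreated cells it was 53932.8 to 82561.7. For the 4 fibroblast markers the sum was 20922.3 to 36470.7 at 8 h and 21390.4 to 32584.5 at 3 h. Untreated cells had 27126.3 to 41167.6. The groups overlapped for both lists, but within each replicate number both sums were lower at 8 h of Tg than in untreated cells. These sums are mostly VIM and TUBB3 for the neural list and COL1A1 for the fibroblast one. At 8 h COL1A1 (log2 fold change -0.29) and COL3A1 (-0.395) were lower than in untreated cells, whereas COL1A2 was higher (0.76). None of these 3 passed in limma with or without the block. Of the 11 tested neural markers, 0 passed in limma at 8 h, against 0.646% higher and 0.21% lower of all genes. In blocked limma 3 fell and 0 rose, against 3.79% and 4.76% of all genes. These were SOX2 (-1.15, adjusted p = 0.0301), SOX4 (-0.95, 0.00541) and GLI2 (-1.18, 0.0248). Both 8 h arrays lay below both untreated arrays for 5 of the 11 and above for 0, a share that was not counted over all genes. Of all 12839 genes, 7713 had a negative log2 fold change at 8 h. No fall particular to these markers is therefore read from the 5. The part of these markers in the results was not tested.

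CDKN1A rose at 8 h of Tg and was the 1 member of the group that passed. CDKN1A encodes p21, which binds and inhibits cyclin-CDK complexes. Its only probe set, 202284_s_at, had signals of 4382.4 and 5284.8 in cells treated with Tg for 8 h, 1851.3 and 2529.9 after 3 h, and 1338.5 and 1424.6 in untreated cells. Both 8 h arrays were above both 3 h arrays, and these were above both untreated arrays, so no 2 groups overlapped. At 8 h the log2 fold change was 1.80 ± 0.23 (SE, n = 2 arrays each), a 3.48-fold rise with a 95% interval of 2.43 to 5.00, and the limma adjusted p was 0.0209. Within replicate numbers the log2 fold change was 1.71 for replicate 1 and 1.89 for replicate 2. Blocked limma gave an adjusted p of 0.00013, and the local pooled error (LPE) test named in the methods gave 0.00118, whereas the call was lost in limma without the intensity trend (0.209) and with each array centred on its median (0.165). In size the rise ranked 209th of 12839 genes, and 52nd of the 83 genes that rose.

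**Figure D1:**
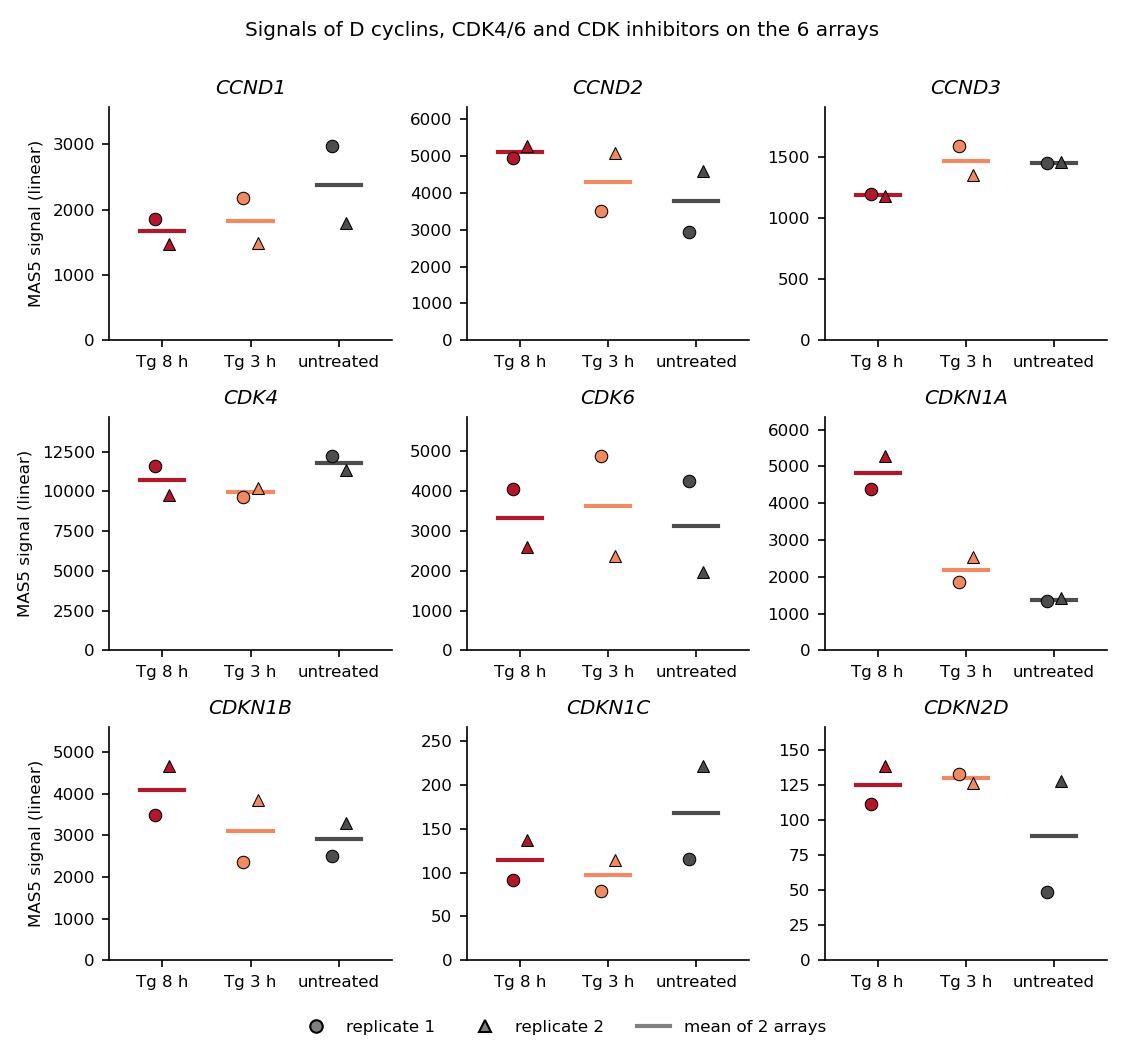
MAS5 signal (linear scale from 0) of the 9 measured genes on each of the 6 arrays, with cells treated with Tg for 8 h at the left, for 3 h in the middle and untreated cells at the right. Circles are replicate 1, triangles replicate 2 and bars the mean of the 2 arrays. CDKN1A is the 1 gene in which no 2 groups overlap, with 4382.4 and 5284.8 at 8 h of Tg against 1338.5 and 1424.6 in untreated cells.

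At 3 h, CDKN1A had a log2 fold change of 0.65 with a 95% interval of 0.13 to 1.17. It did not pass (limma adjusted p = 0.999 without the block and 0.0775 with it), although both arrays lay above both untreated arrays. The direct comparison of 8 h with 3 h gave a log2 difference of 1.15 with an interval of 0.63 to 1.68. Its adjusted p was 0.313 without the block and 0.00629 with it, and 0.332 by LPE. Of the 12839 genes, 0% passed in this comparison without the block and 3.25% with it. The comparisons at 8 h and 3 h share the untreated arrays. The call at 8 h was lost without Tg 8 h replicate 1 (log2 fold change 1.94, adjusted p = 0.127), without Tg 8 h replicate 2 (1.67, 0.152) and without untreated replicate 1 (1.76, 0.0944), and it remained without either 3 h array and without untreated replicate 2 (1.85, 0.0416), the array with the higher UPR signals.

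Counted over the group, 1 of the 9 genes rose and 0 fell at 8 h, whereas 0.646% of all tested genes rose and 0.21% fell. In blocked limma the same 1 gene rose and 0 fell, against 4.76% and 3.79% of all genes, and LPE called 1 of 9, against 1.26% of all genes in either direction. Before adjustment, blocked limma had p under 0.05 for 3 genes that were higher and 1 that was lower at 8 h, namely CDKN1A, CDKN1B and CCND2 on the higher side and CCND1 on the lower, against 10.3% higher and 14.7% lower of all genes. At 3 h limma called 0 of 9, against 0.0701% of all genes (before adjustment 1 of 9 was higher and 0 lower, against 3.26% and 1.24%). Blocked limma called 0 of 9, against 1.25%, and LPE called 0 of 9, against 38 of the 12839 genes. The median log2 fold change of the 9 genes was 0.17 at 8 h and 0.07 at 3 h, and that of all tested genes was -0.09 at 8 h and -0.02 at 3 h.

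**Figure D2:**
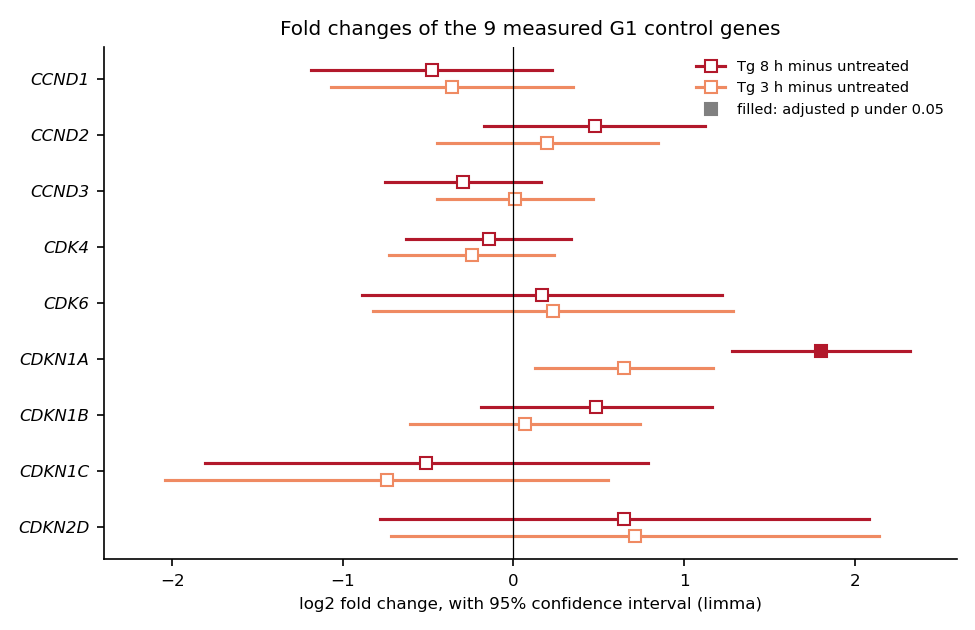
Log2 fold change against untreated cells (squares) with its 95% confidence interval from limma (lines) for the 9 measured genes, for Tg 8 h (upper line of each pair) and Tg 3 h (lower line). A filled square has an adjusted p under 0.05. CDKN1A at 8 h, at 1.80, is the 1 filled square, and its interval at 3 h, 0.13 to 1.17, also lies above 0.

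CDKN1B encodes p27, which restrains cyclin E-CDK2 and whose level is set largely by protein turnover. Probe set 209112_at had signals of 3487.5 and 4663.2 in cells treated with Tg for 8 h, 2364.2 and 3852.2 after 3 h, and 2508.4 and 3301.7 in untreated cells. The 8 h arrays were above the untreated ones, but the lower 8 h array exceeded the higher untreated array by little, and the 3 h arrays spanned the untreated ones. At 8 h the log2 fold change was 0.49 with an interval of -0.19 to 1.16, and it did not pass (adjusted p = 0.654, and 0.0619 in blocked limma). Within replicate numbers it was 0.48 for replicate 1 and 0.50 for replicate 2. At 3 h it was 0.07, with an interval of -0.61 to 0.74.

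CDKN1C, which encodes p57, was dim, and its probe sets did not agree in size. Probe set 213348_at had signals of 91.8 and 136.6 in cells treated with Tg for 8 h, 79.2 and 114.7 after 3 h, and 114.9 and 221.4 in untreated cells. The 8 h arrays overlapped the untreated ones, and the log2 fold change of -0.51 had an interval of -1.81 to 0.79 (adjusted p = 0.859). Probe set 216894_x_at had signals of 8.0 and 10.0 at 8 h, 86.6 and 114.1 after 3 h, and 117.4 and 128.5 in untreated cells. Here both 8 h arrays were below the other 4 and far under the limit of 100 for dim signals, a limit that the probe set passed only through the other groups. With signals under 100 set to 100, the 8 h signal was at least 1.23-fold lower than in untreated cells, and no test passed (adjusted p = 0.235 in limma, 0.0937 in blocked limma and 0.900 by LPE). The other 3 probe sets of CDKN1C were not tested, and of these 219533_at stayed at 8.4 or less on every array.

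CDKN2D, the INK4 inhibitor with a probe set here, was also dim. Probe set 210240_s_at had signals of 111.5 and 138.8 in cells treated with Tg for 8 h, 133.0 and 126.7 after 3 h, and 48.9 and 128.3 in untreated cells. Untreated replicate 1 was the lowest of the 6, and the groups overlapped. The log2 fold change at 8 h was 0.65 with an interval of -0.78 to 2.08 (adjusted p = 0.828), and it was 1.19 within replicate 1 and 0.11 within replicate 2.

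No D cyclin passed at either time. CCND1, the cyclin whose protein is known to be lost when PERK slows synthesis, had signals on 208712_at of 1864.4 and 1471.8 in cells treated with Tg for 8 h, 2178.4 and 1490.4 after 3 h, and 2976.3 and 1790.9 in untreated cells. Replicate 1 was above replicate 2 in every group, and the treated and untreated arrays overlapped. The log2 fold change at 8 h was -0.48 with an interval of -1.19 to 0.23 (adjusted p = 0.680). With the block the interval was -0.81 to -0.15 and the adjusted p 0.0928, and at 3 h the fold change was -0.36 (-1.07 to 0.35). The other probe set of CCND1, 208711_s_at, had signals of 1563.5 and 1132.3 at 8 h, 1479.2 and 1506.9 after 3 h, and 1776.8 and 949.2 in untreated cells. Its untreated arrays enclosed the treated ones, and its log2 fold change at 8 h was 0.03, with an interval of -0.70 to 0.77.

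CCND2, like CCND1, drives the division of cerebellar granule cell precursors. Probe set 200953_s_at had signals of 4949.4 and 5266.8 in cells treated with Tg for 8 h, 3495.0 and 5072.3 after 3 h, and 2935.7 and 4590.5 in untreated cells. Both 8 h arrays were above the untreated ones, and the replicates differed more in untreated cells than at 8 h. A log2 fold change of 0.48 was found, with an interval of -0.17 to 1.12 (adjusted p = 0.644, and 0.102 in blocked limma). It was 0.75 within replicate 1 and 0.20 within replicate 2. On 200951_s_at the log2 fold change at 8 h was 0.61, from signals of 2027.8 and 1838.5 at 8 h, 1155.9 and 1801.8 after 3 h, and 1235.8 and 1295.9 in untreated cells. This probe set also had its 8 h arrays above the untreated ones and did not pass (adjusted p = 0.475). The 2 dimmer probe sets, 200952_s_at and 231259_s_at, gave 0.21 and 0.90, with overlapping arrays.

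CCND3 had signals on 201700_at of 1192.5 and 1177.5 in cells treated with Tg for 8 h, 1589.1 and 1347.4 after 3 h, and 1446.9 and 1459.4 in untreated cells. Both 8 h arrays were below the other 4, and the log2 fold change at 8 h, -0.29 with an interval of -0.75 to 0.16, did not pass (adjusted p = 0.700, and 0.305 in blocked limma). At 3 h it was 0.01. A second probe set, 1562028_at, was under 100 on all arrays and was not tested, with signals of 6.0 and 4.5 at 8 h, 86.3 and 53.8 after 3 h, and 72.1 and 29.3 in untreated cells.

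CDK4 and CDK6, the kinases that the D cyclins activate, showed no change past the threshold. CDK4 had 1 probe set, 202246_s_at, with signals of 11574.7 and 9802.5 in cells treated with Tg for 8 h, 9668.5 and 10240.1 after 3 h, and 12234.1 and 11343.8 in untreated cells. The 3 h arrays were both below the untreated ones and the 8 h arrays overlapped them. The log2 fold change was -0.15 at 8 h (interval -0.63 to 0.34) and -0.24 at 3 h (-0.73 to 0.24).

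CDK6 had signals on 224851_at of 4057.6 and 2600.9 in cells treated with Tg for 8 h, 4888.6 and 2364.5 after 3 h, and 4270.3 and 1961.4 in untreated cells. The replicate number separated these arrays and the treatment did not, since every replicate 1 array was above every replicate 2 array. The log2 fold change at 8 h was 0.17 with an interval of -0.89 to 1.22, which the block narrowed to -0.16 to 0.50. On the other 4 tested probe sets of CDK6 it lay between -0.10 (224847_at) and 0.42 (207143_at). None of the 5 passed, and 2 further probe sets were not tested.

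**Figure D3:**
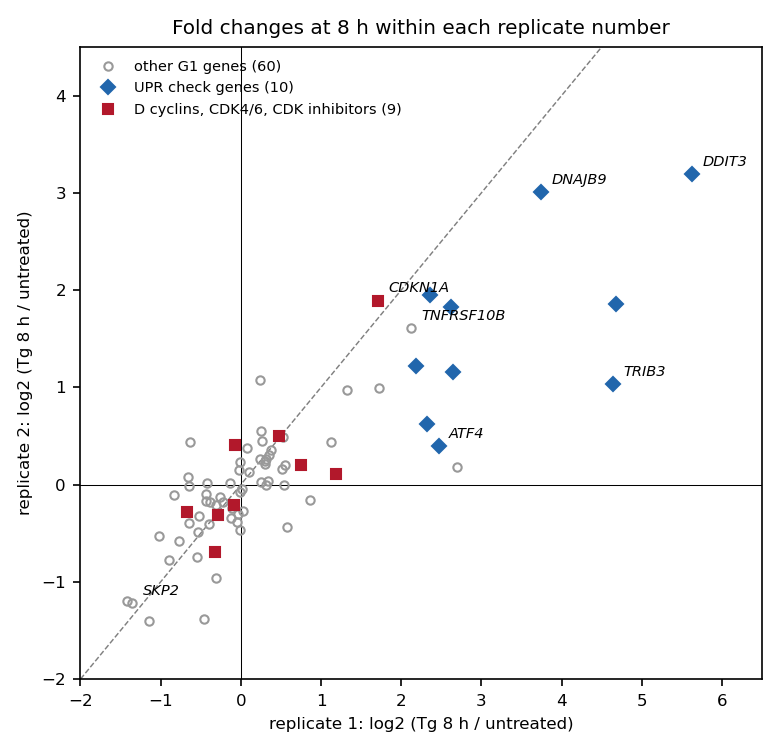
Log2 (Tg 8 h / untreated) within replicate 1 (horizontal axis) and within replicate 2 (vertical axis) for the 9 genes described here (red squares), 60 other G1 genes (open circles) and 10 UPR check genes (blue diamonds); the dashed line marks equal values. CDKN1A lies close to the line, at 1.71 and 1.89, while all 10 UPR check genes lie below it.

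The UPR check genes varied both in their timing and in the difference between the untreated arrays. DDIT3, the transcription factor CHOP induced downstream of PERK, had signals of 20008.8 and 15123.0 in cells treated with Tg for 8 h, 19271.4 and 15024.5 after 3 h, and 405.4 and 1654.4 in untreated cells. Its 8 h and 3 h arrays were at the same height, with log2 fold changes of 4.41 at 8 h and 4.38 at 3 h. TRIB3, a target of ATF4 and CHOP, had 2.83 at 8 h and 1.68 at 3 h, and its log2 difference between 8 h and 3 h, 1.15, was that of CDKN1A, 1.15. Over the 10 check genes this difference was -0.38 to 1.15, with a median of 0.20. Between the untreated arrays (untreated replicate 2 minus replicate 1) the check genes differed by 0.19 for HSPA5 and 0.33 for DNAJB9 up to 3.23 for TRIB3, and CDKN1A by 0.09. Whether the array difference in the untreated group has a part in any result here was not tested.

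Over the 6 arrays, the 2 genes whose log2 signals followed CDKN1A most closely among 7397 genes with a mean signal of at least 500 were ATP2B1, a calcium pump of the plasma membrane, with Pearson's r of 0.998, and SELENOS, an ER membrane selenoprotein of ER-associated degradation, with r of 0.995. The points share 3 groups and 2 replicate numbers, so this describes these arrays. SELENOS had signals of 14362.7 and 14905.6 at 8 h, 6397.7 and 8373.9 after 3 h, and 4489.8 and 4636.4 in untreated cells. ATP2B1 had signals of 2128.4 and 2223.3 at 8 h, 1326.6 and 1560.6 after 3 h, and 1114.0 and 1182.2 in untreated cells. Both had the same order of groups as CDKN1A, with no overlap. Since they were picked for likeness to CDKN1A, their order and their values at 8 h are no separate support. At 8 h SELENOS rose by 1.68 on the log2 scale (adjusted p = 0.0212), and ATP2B1, at 0.92, passed only in blocked limma (adjusted p = 0.110 without the block and 0.0047 with it).

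Other genes of the G1 machinery were read from 4 lists with 64 genes in all, of which 60 were tested. At 8 h 1 rose and 1 fell in limma, against 0.646% and 0.21% of all genes. In LPE 3 rose and 0 fell, against 135 and 27 of the 12839 genes. In blocked limma 4 rose and 6 fell, against 4.76% and 3.79%. The median log2 fold change of the 60 genes was -0.08, and that of all genes -0.09. At 3 h limma called 0, with 5 higher and 2 lower genes of 60 at p under 0.05 before adjustment, against 3.26% and 1.24% of all genes, and blocked limma called 2, both higher, against 1.25% of all genes in either direction.

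**Figure D4:**
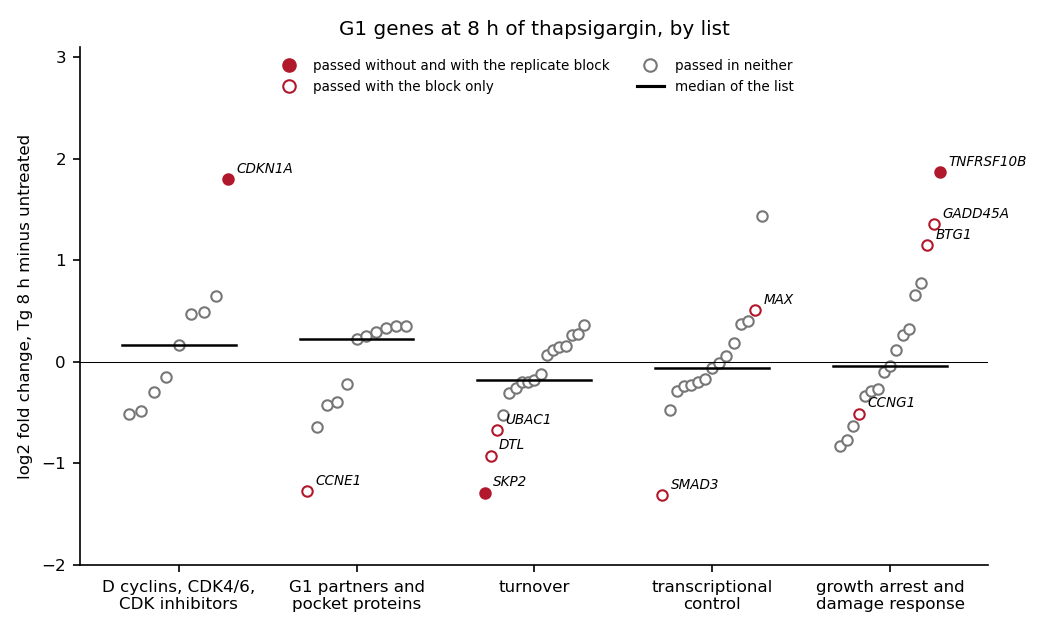
Log2 fold change at 8 h of Tg (vertical axis) for the 9 genes described here and for the 60 tested genes of the 4 other G1 lists. Filled circles passed without and with the replicate block, open red circles with the block only and grey circles in neither, and black lines are medians. CDKN1A (1.80), TNFRSF10B (1.87) and SKP2 (-1.29) are the 3 filled circles.

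Among the partners of the cyclins and the pocket proteins, 0 of 11 passed in limma, against 0.646% higher and 0.21% lower of all genes. In blocked limma, where 3.79% of all genes fell, 1 of the 11 fell. This was CCNE1, cyclin E1, which activates CDK2 at the end of G1. It had signals of 280.7 and 210.2 in cells treated with Tg for 8 h, 514.9 and 380.9 after 3 h, and 618.8 and 554.2 in untreated cells. All groups were apart, and the log2 fold change at 8 h was -1.27 ± 0.29 (SE), with adjusted p-values of 0.134 without the block and 0.00861 with it. The mean of all its probe sets gave 0.20, but it takes in 242105_at, which was too dim to be tested. The direction given here is that of 213523_at alone.

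The turnover list holds ubiquitin ligases and related factors that degrade D cyclins and CDK inhibitors. Of its 17 genes 1 fell and 0 rose in limma, against 0.21% and 0.646% of all genes. In blocked limma 3 fell and 0 rose, against 3.79% and 4.76%, and the median log2 fold change was -0.18. SKP2, the F-box protein that directs p27 and also p21 to degradation, had signals of 1695.5 and 1608.5 in cells treated with Tg for 8 h, 2410.4 and 3040.9 after 3 h, and 4331.4 and 3747.7 in untreated cells. No 2 groups overlapped, and the order of the groups was the reverse of that of CDKN1A. At 8 h the log2 fold change was -1.29 ± 0.21 (SE), with an adjusted p of 0.0448 without the block, 0.00131 with it and 0.0884 by LPE. The call in limma was lost when any 1 of the 6 arrays was left out, at adjusted p of 0.0771 to 0.278. DTL, the substrate receptor of the CUL4 ligase for p21, fell in blocked limma, where its log2 value was -0.92 (adjusted p = 0.254 without the block and 0.0305 with it). Its signals were 1536.9 and 1179.7 at 8 h, 2081.8 and 2769.5 after 3 h, and 2114.3 and 3079.4 in untreated cells, so that the 8 h arrays stood below the other 4. UBAC1, a subunit of the ligase that degrades p27 in G1, had -0.67 (0.532 without the block and 0.0327 with it).

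Transcriptional regulators of these genes were tested for 15 of 16 listed, and 0 passed in limma at either time. Of all genes 0.646% rose and 0.21% fell at 8 h, and 0.0701% passed at 3 h. The blocked fit at 8 h called 1 higher and 1 lower, against 4.76% and 3.79% of all genes. In blocked limma at 8 h MAX, the partner of MYC, rose by 0.51 (adjusted p = 0.448 without the block and 0.0344 with it). SMAD3, which carries TGF-β signals to CDKN1A and other genes, fell in that fit, its log2 fold change being -1.31 (adjusted p = 0.129 without the block and 0.00675 with it). SMAD3 had signals of 384.2 and 381.1 at 8 h, 1138.0 and 661.4 after 3 h, and 1030.0 and 874.2 in untreated cells, with the 8 h arrays alone at the low end. MYC, a repressor of CDKN1A and an activator of CCND2 and CDK4, had signals of 1141.3 and 1890.8 at 8 h, 1930.4 and 2698.3 after 3 h, and 782.2 and 1647.3 in untreated cells. The 3 h arrays were above the untreated ones and the 8 h arrays overlapped them. Its log2 fold change of 1.01 at 3 h passed in blocked limma (adjusted p = 0.0243, and 0.999 without the block), and that at 8 h, 0.37, did not (0.250).

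On the list of growth arrest and damage response genes, 17 of 20 were tested. At 8 h 1 rose and 0 fell in limma, against 0.646% and 0.21% of all genes. In blocked limma 3 rose and 1 fell, against 4.76% and 3.79%, and the median log2 fold change was -0.04. TNFRSF10B, the death receptor DR5 and also a known target of CHOP, had signals of 4543.2 and 5047.0 in cells treated with Tg for 8 h, 2366.1 and 2351.6 after 3 h, and 1045.4 and 1651.3 in untreated cells. Its groups were in the same order as those of CDKN1A and did not overlap. The log2 fold change at 8 h was 1.87 ± 0.25 (SE), with an adjusted p of 0.0239 without the block and 0.000324 with it. Without any 1 array other than untreated replicate 2 it no longer passed, at adjusted p of 0.059 to 0.176. GADD45A, a growth arrest gene that is known to be induced by ATF4, had 1.36 at 8 h and 1.45 at 3 h. It did not pass in limma without the block (adjusted p = 0.136 at 8 h and 0.375 at 3 h). In blocked limma it passed at both times (adjusted p = 0.00184 at 8 h and 0.0043 at 3 h). It also passed at 8 h in LPE (0.0328) and, without untreated replicate 2, in limma (0.0333). BTG1, an antiproliferative gene, had 1.15 at 8 h (adjusted p = 0.231 without the block and 0.00606 with it). CCNG1, cyclin G1, fell in blocked limma, with -0.51 on the log2 scale (adjusted p = 0.694 without the block and 0.0318 with it).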

How the data were processed

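RNA of Daoy cells treated with thapsigargin (Tg) for 8 h or 3 h, or left untreated, was hybridized to 6 Affymetrix expression arrays. Intensities deposited by the authors were linear MAS5 signals per probe set, brought by them to one trimmed mean per array (500.07 to 500.08 here). Median signals were 84.8 to 103.0 for replicate 1 arrays and 69.7 to 75.3 for replicate 2 arrays, and 2 arrays per group limit the precision. The number of sample columns left unused was 0. The platform annotation gave 1 gene symbol to 41097 of the 54675 probe sets, more than 1 to 1801 and no symbol to 11777, and genes were named only from the first kind.

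Log2 signals of probe sets with at least 100 on at least 2 arrays were fitted with limma 3.58.1 in R 4.3.3 (lmFit, eBayes with an intensity trend, two-sided tests, Benjamini-Hochberg adjustment, threshold 0.05), with the group as the term. Deviations from the group mean correlated between arrays of equal replicate number (r 0.26 to 0.32 over tested probe sets, 0.66 to 0.70 over the 12232 with a mean signal of at least 500), a pairing found in the data and not in the labels. The fit without the block is the reported one, and the blocked p is given where it changes a call. The local pooled error (LPE) test, which the methods name, was written anew with 100 intensity bins. The fits were checked on simulated data. Alternatives were the block, that test, limma without the trend, quantile normalization, centring on the median, other filters, a floor of 100, a pseudocount of 50, only the 4 arrays compared, leaving out each array, the mean of all probe sets and each probe set alone.

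The members, the lists and the rule for named genes were chosen with earlier results of these data known. The rule names all members, up to 6 genes per list that passed with or without the block, and the 2 genes most like a member that passed. KLF4, CDC25A, the 3 neural markers that fell and single probe sets were named after their values were seen. Python 3.11.15 with pandas 2.3.3 and matplotlib 3.10.9 was used for tables and plots.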

Additional observations from a re-analysis of the deposited data

Results flagged for a closer look

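The change between 3 h and 8 h of Tg, tested directly on the arrays of both times with the replicate number as a block, passed for 1 of the 9 genes described above and for 5 of the 60 other G1 genes (2 higher and 3 lower), against 3.25% of all genes. CDKN1A was higher at 8 h than at 3 h by 1.15 on the log2 scale (adjusted p = 0.00629), TNFRSF10B by 1.02 (0.0177) and BTG1 by 0.85 (0.0469). SKP2 differed by -0.71 (0.0473), SMAD3 by -1.18 (0.0250) and CDC25A, a phosphatase that activates CDK2, by -1.22 (0.0125). CDC25A had signals of 490.8 and 396.3 at 8 h, 1182.3 and 895.8 after 3 h, and 717.4 and 663.1 in untreated cells, and was named after its values were seen. Without the block none of the 6 passed in limma, where 0 of 12839 genes did, and none passed by the local pooled error test. For each of the 6, both 8 h arrays lay on one side of both 3 h arrays. The 6 were picked because this contrast passed on these arrays, so the separation adds no support. With 2 arrays per group, no single array could be tested as standing apart from its group.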

How the results depend on the processing

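The replicate block moved the count of members that passed between 8 h and 3 h to 1 (against 0), of other G1 genes at 8 h to 10 (4 higher and 6 lower, against 1 and 1) and at 3 h to 2 (against 0), and left the members at 8 h at 1 and at 3 h at 0. Members that passed at 8 h were 0 without the intensity trend, 0 with centring on the median and 0 to 1 with an array left out. The count of 2 other G1 genes at 8 h became 0 without the trend, with centring, with only the 4 arrays compared and with the mean of all probe sets, 1 with signals under 100 raised to 100, 3 by the local pooled error test (3 higher and 0 lower, against 1 and 1), and 0 to 3 with an array left out, the 3 without untreated replicate 2. At 3 h it was 1 by the local pooled error test and 0 to 1 with an array left out. CDKN1A at 8 h kept its direction in each alternative, with an adjusted p of 0.209 without the trend and 0.165 with centring. Centring moved the median of all genes by 0.08 at 8 h, -0.11 at 3 h and 0.20 between 8 h and 3 h, and cut the calls over all genes at 8 h to 25 higher and 3 lower, against 83 and 27, which without the trend were 0 and 0. With the block these were 611 and 486, by the local pooled error test 135 and 27, and with an array left out 0 to 108 higher and 0 to 8 lower. The cause was not tested.

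Log2 fold changes that reversed, none of them a call in limma without the block (CCNE1 at 8 h is a call with it), were the following. With centring these were CCND1 (0.075, 8 h minus 3 h), CCND3 (-0.10, 3 h), CDK6 (0.13, 8 h minus 3 h), CDKN1B (-0.045, 3 h) and CDKN2D (0.14, 8 h minus 3 h, and 0.11 with quantile normalization). On single probe sets they were CCND1 208711_s_at (0.035 at 8 h, 0.20 at 3 h), CCND2 between 8 h and 3 h (-0.43 on 200952_s_at, -0.023 on 231259_s_at), CDK6 at 8 h (-0.10 on 224847_at, -0.045 on 224848_at), CDK6 207143_at (-0.60 at 3 h, 1.03 between 8 h and 3 h), CDKN1C 216894_x_at (-3.47 between 8 h and 3 h, from 8 h signals under the limit of 100, so of no measured size), and at 3 h DTL 222680_s_at (0.16), SMAD3 205398_s_at (0.024) and TNFRSF10B 1556645_s_at (-0.19). With the mean of all probe sets they were CDKN1C (0.09 at 3 h, -0.84 between 8 h and 3 h), CDKN2D (0.35 between 8 h and 3 h), CCNE1 (0.20 at 8 h) and DTL (0.034 at 3 h).

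With an array left out, the ranges that crossed 0 were, at 8 h, CDK6 -0.40 to 0.73, CDKN2D -0.044 to 1.35 and MYC -0.16 to 0.91. At 3 h they were CCND1 -0.72 to 0.009, CCND2 -0.12 to 0.52, CCND3 -0.11 to 0.13, CDK6 -0.33 to 0.79, CDKN1B -0.28 to 0.42, DTL -0.36 to 0.18, UBAC1 -0.37 to 0.17, SMAD3 -0.52 to 0.26, BTG1 -0.18 to 0.77 and CCNG1 -0.68 to 0.082. Between 8 h and 3 h they were CCND1 -0.40 to 0.15, CDK4 -0.022 to 0.22, CDK6 -0.59 to 0.46, CDKN1C -0.054 to 0.52 and CDKN2D -0.22 to 0.10. Of the other 318 alternatives for members 297 kept direction and side of the threshold, and of 293 for the named other genes 260 did. Alternatives that change only the test or the filter leave the fold change as it is, so its direction could not change. Most of these results did not pass in the main fit either. The counts are therefore no measure of how firm the results are. SMAD3 205398_s_at alone passed at 8 h without the block (-1.68, adjusted p = 0.0362). In the same fit SMAD3 205396_at gave -0.29 (0.978) and 205397_x_at -3.34 (0.289), and the mean of its probe sets gave -1.66 (0.219). For the genes called at 8 h, SKP2 210567_s_at gave -0.99 (0.454). TNFRSF10B gave 1.17 (0.157) on 209294_x_at, 1.54 (0.162) on 210405_x_at and 2.26 (0.686) on 1556645_s_at, so none of these passed.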

Other observations

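KLF4, a transcription factor that activates CDKN1A, was on the list of regulators and passed in the local pooled error (LPE) test alone. It had signals of 4131.5 and 4599.2 in cells treated with Tg for 8 h, 3740.2 and 6596.9 after 3 h, and 638.3 and 4052.3 in untreated cells. Untreated replicate 1 was far below the other 5 arrays. Its log2 fold change at 8 h was 1.44, with an adjusted p of 0.575 in limma, 0.0936 with the replicate block and 0.0322 with LPE, and within replicate numbers it was 2.69 for replicate 1 and 0.18 for replicate 2. Without untreated replicate 1 it was 0.11 in limma (adjusted p = 0.980), and without untreated replicate 2 it was 2.77 (0.0169).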
